A study of Ogataea angusta with 8 samples.

Results

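Of the 5837 features on arrays of strain DL-1-L of Hansenula polymorpha, a methylotrophic yeast listed as Ogataea angusta, 58 had a xylose ratio that was higher in aerobic than in microaerobic cells by at least 0.6 on the log2 scale. The ratio sets RNA of xylose-grown cells against RNA of glucose-grown cells of the same oxygen condition. The 58 members were chosen on the deposited values, as the plain mean of the 4 aerobic arrays minus that of the 4 microaerobic arrays, among the 5355 features that none of the 8 arrays lacked. The difference itself is therefore given as a description, and nothing is read from its test results. The members are 1.08% of those 5355 features, and 101 features had a difference as large in the other direction.

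Aerobic cultures were grown at 37 °C with 50 ml of medium in 500 ml flasks shaken at 180 rpm. Microaerobic cultures were grown at 37 °C with 100 ml in 250 ml flasks shaken at 100 rpm, so that oxygen supply, flask, volume and shaking changed together. Each condition has 4 two-colour arrays, called cy5-1, cy5-2, cy3-1 and cy3-2 after the label on the xylose cDNA, and the glucose cDNA carried the other dye. Whether arrays stand for separate cultures or extracts is not stated in the labels, so p-values measure a spread that may be technical, and no array set aerobic against microaerobic RNA directly. In H. polymorpha and other yeasts, xylose is reduced to xylitol by xylose reductase, oxidised to xylulose by xylitol dehydrogenase, phosphorylated by xylulokinase and passed to the pentose phosphate pathway. The reductase often draws on NADPH while the dehydrogenase makes NADH, which respiration reoxidises, so the use of this sugar is known to depend on oxygen more than that of glucose. The 5442 genes of the reference table matched 0 of the 5837 array identifiers, so no member can be named as one of these enzymes, and the members are described by their ratios.

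The deposited ratios are taken to be log2 values of xylose over glucose. No source used here states the base or the numerator, but on every array xylose is channel 1 and gives the sample its title, which makes this reading likely. With glucose as the numerator each "higher" below would read "lower". The 8 arrays had 5493 to 5677 values each, and every pair of arrays correlated above 0 across features (0.33 to 0.88). The number of arrays limits the precision.

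A higher ratio in aerobic cells can come about in several ways, and the members were divided into 5 classes by where their mean ratios lay against 0.3 and -0.3, the level at which a difference of 0.6 is shared equally. In 5 members the ratio was at or above 0.3 in aerobic cells only, and in 19 it was at or below -0.3 in microaerobic cells only. Opposite signs past these levels were found in 6 members. A further 17 members were higher on xylose in both conditions, and more so in aerobic cells, and 11 were lower on xylose in both, and less so in aerobic cells. These counts, and which class was larger, moved with the processing and with single arrays. Members higher in both outnumbered those lower in microaerobic cells only after quantile normalization (23 against 12), at a level of 0.2 (17 against 12), and without aerobic array cy5-1 (26 against 16), aerobic array cy5-2 (27 against 22) or microaerobic array cy3-1 (23 against 22). The class higher in both held 9 features without microaerobic array cy5-2, and that of opposite signs held 3 without microaerobic array cy5-2 and 12 and 10 without microaerobic array cy3-1 or cy3-2. The median difference was 0.82 over all members, 0.76 in the class higher in aerobic cells only, 0.85 in that higher in both, 0.86 in that of opposite signs, 0.82 in that lower in microaerobic cells only and 0.86 in that lower in both. The class medians thus lay close together, which the shared threshold of 0.6 sets in part, while the levels of the classes differ by definition. Over all 5355 features the median difference was 0.01.

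**Figure D1:**
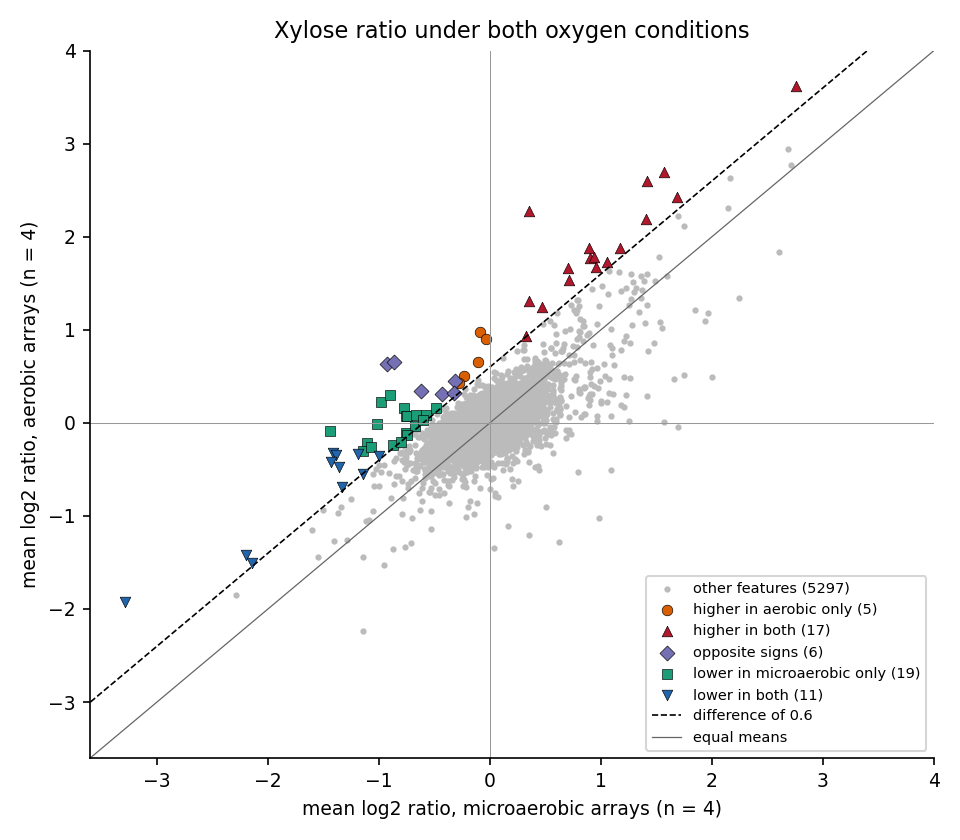
Mean log2 ratio of each feature over the 4 aerobic arrays (vertical axis) against its mean over the 4 microaerobic arrays (horizontal axis); coloured markers are the 58 members by class, grey points the other 5297 features. The members lie on or above the dashed line of a difference of 0.6, from an aerobic mean of -1.93 to one of 3.62.

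The differences of the members ran from 0.6 to 1.92, and 14 were 1 or more. Just inside the threshold lay members at 0.6, 0.6, 0.608 and 0.625, and just outside it features at 0.598, 0.588, 0.585 and 0.583. The edge of the list is therefore arbitrary, and 97 features would be counted at a threshold of 0.5 and 31 at 0.8. A further 2 features met the threshold on fewer than 8 values. They had differences of 0.78 (2 aerobic and 3 microaerobic values) and 0.6 (2 and 2 values), and are not members.

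In the class higher on xylose in aerobic cells only, aerobic means ran from 0.43 to 0.97 and microaerobic means from -0.28 to -0.04. Feature KH-1459, with the largest difference of this class, had aerobic ratios of 0.66 and 0.63 on the Cy5 arrays and 1.33 and 1.27 on the Cy3 arrays. Its microaerobic ratios were -0.54 and -0.32 on the Cy5 arrays and 0.30 and 0.22 on the Cy3 arrays. The conditions did not overlap, and in both of them the Cy3 arrays were the higher ones. Its mean was 0.97 ± 0.38 in aerobic and -0.09 ± 0.41 in microaerobic cells (SD, n = 4 each), a difference of 1.06 or 2.08-fold.

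The next member of this class had aerobic ratios of 1.11, 0.90, 0.78 and 0.82 on arrays cy5-1, cy5-2, cy3-1 and cy3-2, against -0.11, -0.63, 0.38 and 0.21 on the microaerobic arrays in the same order. Its conditions also did not overlap. A further member had aerobic ratios of 0.66, 0.42, 0.99 and 0.54, against microaerobic ratios of -0.20, -0.35, 0.09 and 0.04. All 5 members of the class had a negative ratio on microaerobic array cy5-2 (-2.10 to -0.32) and a positive one on both microaerobic Cy3 arrays (0.04 to 0.48), so their microaerobic means near 0 average over values of both signs. For 1 of them the difference rested on 1 array. Its aerobic ratios were 0.11, 0.56, 0.72 and 0.62, and its microaerobic ratios 0.54, -2.10, 0.29 and 0.34. Its difference of 0.74 was 0.11 without microaerobic array cy5-2.

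In the 6 members of opposite signs, aerobic means ran from 0.31 to 0.65 and microaerobic means from -0.93 to -0.31. Feature KH-1199 had aerobic ratios of 0.24, 0.63, 0.91 and 0.77 on arrays cy5-1, cy5-2, cy3-1 and cy3-2, against -1.26, -0.76, -0.86 and -0.84 on the microaerobic arrays. Every aerobic array was thus positive and every microaerobic array negative, whichever dye the xylose RNA carried. Its mean was 0.64 ± 0.29 in aerobic and -0.93 ± 0.22 in microaerobic cells (SD, n = 4 each), a difference of 1.57 or 2.96-fold.

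Another 2 members of the class had 1 sign on all arrays of each condition. One had aerobic ratios of 0.30, 0.80, 0.98 and 0.52, against microaerobic ratios of -1.09, -1.01, -0.64 and -0.71. The other was smaller in both conditions, with aerobic ratios of 0.17, 0.43, 0.51 and 0.18, against microaerobic ratios of -0.44, -0.43, -0.07 and -0.37. The sign of the remaining 3 depended on the dye in 1 condition. One of these had aerobic ratios of 0.27, 0.33, 0.42 and 0.21, against microaerobic ratios of -1.08 and -0.94 on the Cy5 arrays but 0.28 and 0.01 on the Cy3 arrays. A like member had aerobic ratios of 0.42, 0.85, 0.31 and 0.21, against microaerobic ratios of -0.79, -0.70, 0.21 and 0.03. In both, only the microaerobic Cy5 arrays gave the negative sign. The last had its split in aerobic cells, with ratios of 0.68 and 0.99 on the Cy5 arrays and -0.12 and -0.18 on the Cy3 arrays, against microaerobic ratios of -0.05, -1.04, -0.66 and -0.72.

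The 19 members lower on xylose in microaerobic cells only had microaerobic means from -1.45 to -0.48 and aerobic means from -0.30 to 0.30. All 19 had a negative ratio on all 4 microaerobic arrays. Their aerobic ratios lay around 0, with both signs in 15 of the 19 and a negative ratio on all 4 aerobic arrays in 3, while the last had no negative value. Feature KH-1601 had aerobic ratios of 0.23, 0.13, -0.24 and -0.47, against -1.76, -1.31, -1.21 and -1.5 on the microaerobic arrays. The conditions did not overlap, and the 2 positive aerobic values were those of the Cy5 arrays. Its mean was -0.09 ± 0.33 in aerobic and -1.45 ± 0.24 in microaerobic cells (SD, n = 4 each), a difference of 1.36 or 2.56-fold.

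The member next to it in difference had aerobic ratios of 0.33, 0.91, 0.02 and -0.37, against microaerobic ratios of -1.35, -1.35, -0.55 and -0.67. Here the aerobic value of cy3-2 reached towards the microaerobic ones, and the difference was 1.97 where the xylose RNA carried Cy5 and 0.44 where it carried Cy3. A member with little dependence on the dye had aerobic ratios of 0.00, 0.34, 0.51 and 0.33, against microaerobic ratios of -1.05, -0.92, -0.75 and -0.87. It was also the member nearest to opposite signs, with an aerobic mean of 0.295. At the other end, a member with a difference of 1.72 on the Cy3 arrays and 0.07 on the Cy5 arrays had aerobic ratios of -0.36, -0.65, 0.10 and 0.04, against microaerobic ratios of -0.72, -0.42, -1.60 and -1.70.

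The 17 members higher on xylose in both conditions had aerobic means from 0.94 to 3.62 and microaerobic means from 0.33 to 2.76. All 17 were positive on all 4 aerobic arrays, and 11 on all 4 microaerobic arrays. The largest difference of all 58 members was found here, in a feature close to the class higher in aerobic cells only. Its aerobic ratios were 2.37, 1.88, 2.58 and 2.27, against microaerobic ratios of -0.14, 0.49, 0.52 and 0.54, and the difference was 1.92 (1.95 on the Cy5 arrays and 1.90 on the Cy3 arrays). The conditions were far apart on every array. Only 4 of the 17 had no overlap between the conditions.

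The next in difference had aerobic ratios of 2.78, 1.61, 3.21 and 2.82, against microaerobic ratios of 0.90, 0.41, 2.03 and 2.33. Its values on the microaerobic Cy3 arrays lay above that on aerobic array cy5-2, but below those on the other aerobic arrays, cy5-1 among them. Whether the dye or that single array made the conditions overlap cannot be told apart. Another member of the class had aerobic ratios of 1.48, 1.16, 2.87 and 2.02, against microaerobic ratios of 0.22, 0.12, 2.23 and 2.11. Its conditions overlapped within the Cy3 arrays too, with aerobic array cy3-2 below both microaerobic ones. Its difference was 1.15 on the Cy5 arrays and 0.28 on the Cy3 arrays. The member with the highest ratios of all had aerobic values of 2.92, 3.63, 4.30 and 3.64, against microaerobic values of 1.99, 1.66, 3.83 and 3.55. Its difference was 1.45 on the Cy5 arrays and 0.28 on the Cy3 arrays. A member whose conditions did not overlap had aerobic ratios of 1.32, 1.43, 1.47 and 1.03, against microaerobic ratios of 0.25, 0.13, 0.60 and 0.42. Its difference was 1.185 on the Cy5 arrays and 0.74 on the Cy3 arrays, so it too was larger with Cy5. In 1 member of the class the difference was 0.745 with either dye, although its ratios themselves were higher with Cy3, at 1.85, 2.13, 3.0 and 2.74 in aerobic cells, against 1.33, 1.16, 2.18 and 2.07 in microaerobic cells.

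The 11 members lower on xylose in both conditions had aerobic means from -1.93 to -0.33 and microaerobic means from -3.29 to -1.003. All 11 were negative on all 4 microaerobic arrays, and 10 on all 4 aerobic arrays. Feature KH-2157, whose microaerobic mean was the lowest of the members, had aerobic ratios of -1.84, -1.33, -2.33 and -2.21, against -3.44, -3.55, -3.05 and -3.12 on the microaerobic arrays. The conditions did not overlap, and the distance between them was 1.91 on the Cy5 arrays and 0.82 on the Cy3 arrays. Its mean was -1.93 ± 0.45 in aerobic and -3.29 ± 0.24 in microaerobic cells (SD, n = 4 each), a difference of 1.36 or 2.57-fold. After quantile normalization this difference was 0.90.

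Several members of this class were alike on all arrays. One had aerobic ratios of -0.52, -0.21, -0.62 and -0.35, against microaerobic ratios of -1.37, -1.35, -1.53 and -1.49. Another had aerobic ratios of -0.59, -0.30, -0.50 and -0.49, against microaerobic ratios of -1.54, -1.20, -1.22 and -1.49. In both the conditions were apart by more than the spread of either. The exception in sign had aerobic ratios of 0.27 and 0.68 on the Cy5 arrays and of -1.26 and -1.01 on the Cy3 arrays, against microaerobic ratios of -1.25, -0.88, -1.5 and -1.12.

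**Figure D2:**
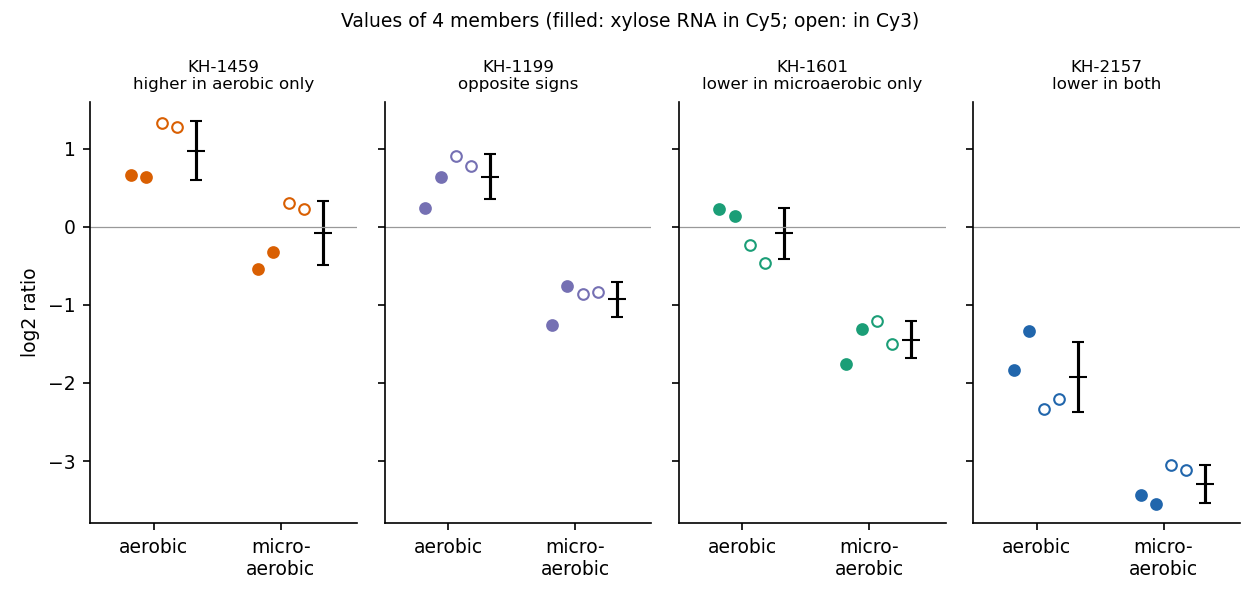
Log2 ratios of KH-1459, KH-1199, KH-1601 and KH-2157 on the 4 aerobic (left) and 4 microaerobic (right) arrays; filled points have the xylose RNA in Cy5, open points in Cy3, and bars give the mean and SD (n = 4). In all 4 features every aerobic array lies above every microaerobic array, and the points of KH-1459 split by dye in both conditions.

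**Figure D3:**
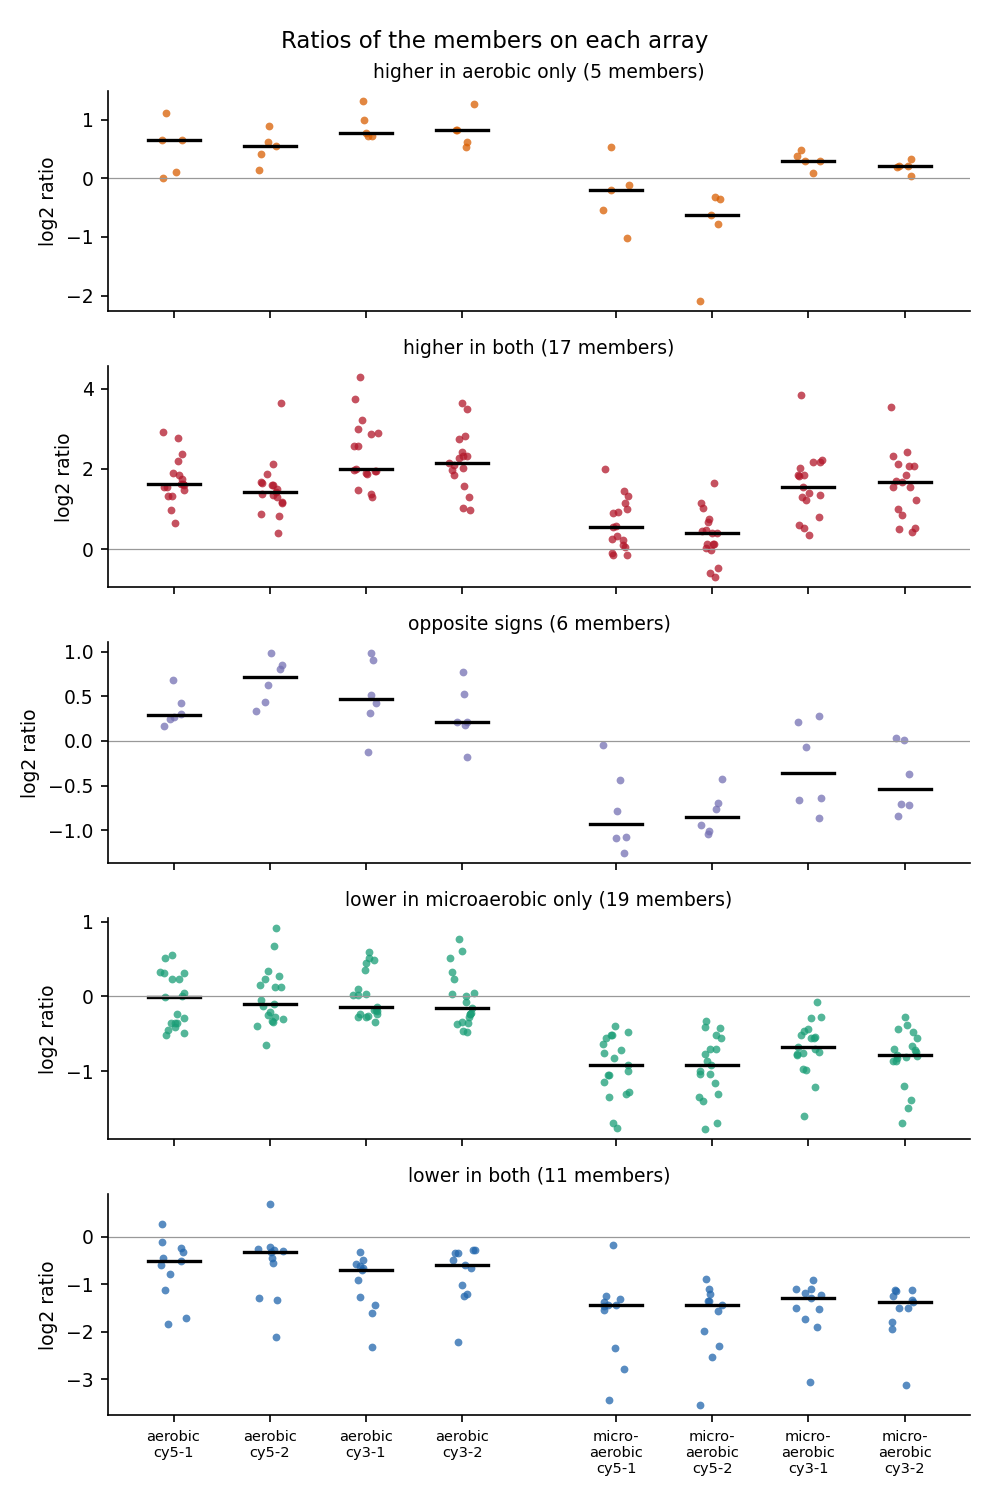
Log2 ratios of the 58 members on each of the 8 arrays, a panel per class, with the aerobic arrays at left and a black bar at the class median; each point is a member. The class higher in both has medians of 0.56 and 0.40 on the microaerobic Cy5 arrays and of 1.55 and 1.68 on the microaerobic Cy3 arrays.

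How far the arrays of the conditions lay apart was read without the fit. In 32 of the 58 members every aerobic array lay above every microaerobic array, against 3.36% of the 5355 features. These were 3 of 5 members higher in aerobic cells only, 4 of 17 higher in both, 3 of 6 of opposite signs, 14 of 19 lower in microaerobic cells only and 8 of 11 lower in both. The difference between arrays of the same dye and number was positive in 4 of 4 pairs for 52 members and in 3 of 4 for the other 6, against 4 of 4 in 13.0% of all features. With limma (adjusted p under 0.05), 18 of the 58 were called for the difference, against 0.335% of 5674 tested features called in that direction. With the name of the array as a replicate block 35 were called, against 0.822% of 5355 features, and without microaerobic array cy5-2, 11 were called, against 0.194% of 5666 features. Since the rule used these values, nothing is read from these counts.

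Limma also tested each condition's ratio against 0. In aerobic cells 23 members were called higher on xylose (6.08% of tested features) and 8 lower (5.71%), and in microaerobic cells 12 were called higher (9.76%) and 34 lower (10.7%). The 12 were 7 without microaerobic array cy3-1 (6.18% of features) and 6 without microaerobic array cy3-2 (6.24%), and the 34 were 34 (6.39%) and 30 (5.90%). Without aerobic array cy3-1 or cy3-2 the aerobic calls were 22 higher and 7 lower in each case, while the shares of all features were 3.58% and 3.54% higher and 2.74% lower in both. Of the 6 members of opposite signs, 3 were called higher in aerobic cells and 4 lower in microaerobic cells. All 19 members lower in microaerobic cells only were called there and none of them in aerobic cells. Of the 5 members higher in aerobic cells only, 3 were called there and none in microaerobic cells. These values too were part of the choice, and being called in 1 condition is no test of the difference between the 2 conditions.

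**Figure D4:**
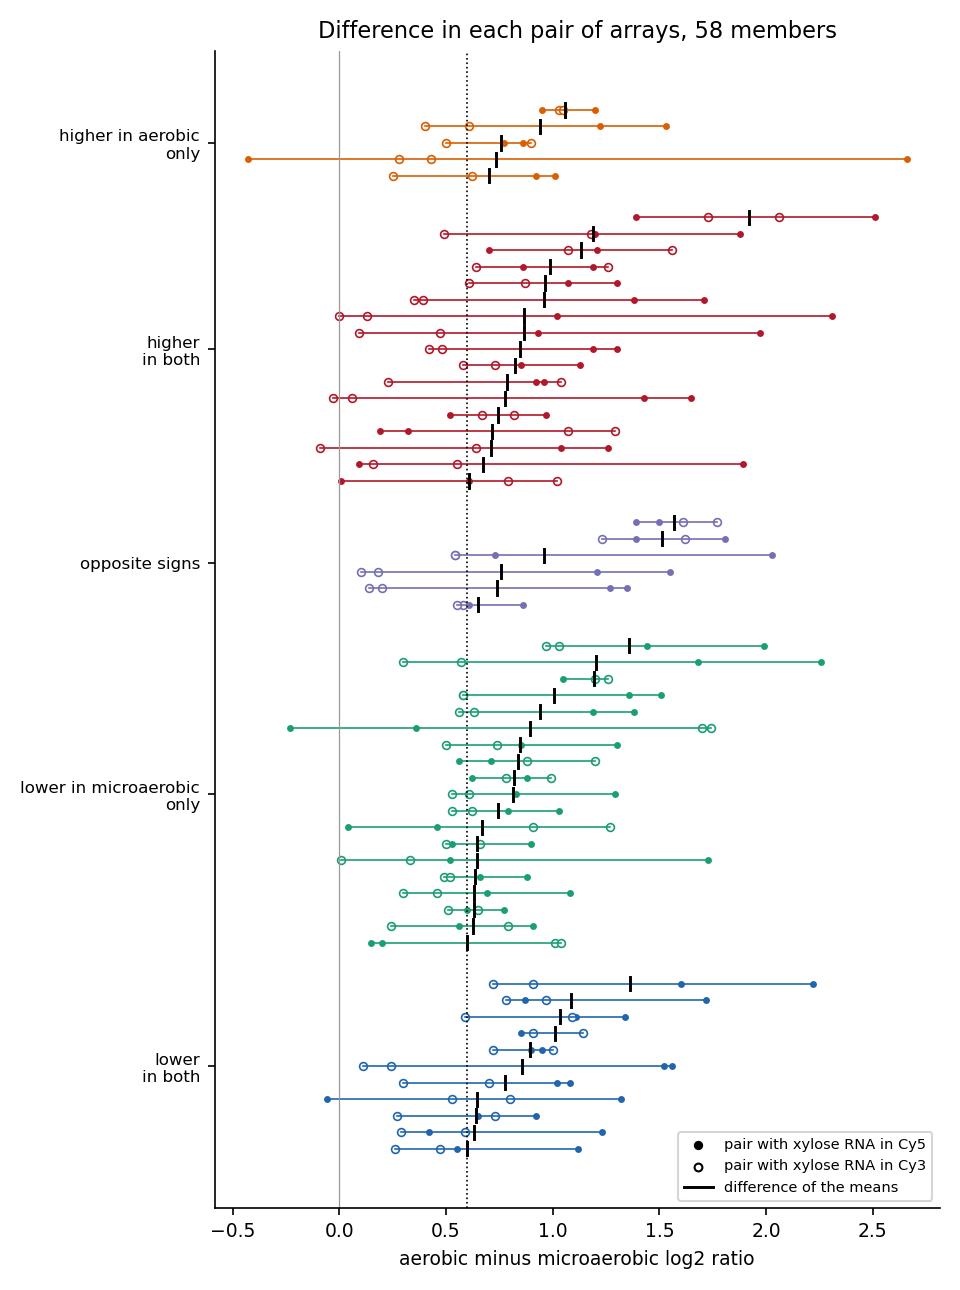
Aerobic minus microaerobic log2 ratio of each member, a row per member grouped by class, in the 4 pairs of arrays of the same dye and number; filled points have the xylose RNA in Cy5, open points in Cy3, and the black mark is the difference of the means. All black marks lie at or right of the dotted line at 0.6, and 52 of the 58 rows lie wholly right of 0.

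The threshold was also applied to the arrays of 1 number alone and the result read on the arrays of the other number, which were not used for that choice. Each number holds 1 array of either dye in each condition. On the arrays numbered 1, 77 features had a difference of at least 0.6, with a median of 0.70. On the arrays numbered 2 the median of these 77 was 0.64. There, 71 of them (92.2%) had a positive difference, against 51.7% of all 5355 features, and 40 (51.9%) again reached 0.6, against 1.34% of all features. Chosen on number 2 instead, 72 features had a median of 0.82, and of 0.65 on number 1. Of these, 69 (95.8%) were positive there, against 51.4% of all features, and 40 (55.6%) reached 0.6, against 1.44%. In the features so chosen, the median difference was thus smaller on the arrays that did not choose them, and most differences kept their sign. Members made up 47 of the 77 features and 51 of the 72 features. The shares therefore describe the features chosen on 1 number, and nothing is read from them about the members. Effects of the dye, which both numbers share, are not removed by this reading. The labels do not say whether the numbers stand for separate cultures. The arrays read may therefore repeat the same RNA, and the shares are no independent check.

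The mean over both conditions is a contrast that the rule did not use, since it is at right angles to the difference where all 8 values are present. Of the 58 members, 46 (79.3%) were called for this mean with limma, against 28.1% of tested features. On xylose 20 of them rose (12.6% of tested features) and 26 fell (15.4%). A difference of 0.6 does, however, require a mean ratio of at least 0.3 in size in aerobic cells, microaerobic cells or both. The rule can therefore favour features with a large mean over both conditions, although it did not use that mean. How far it did so was not tested, and no trait of the members is read from the share called. The median size of the mean, without its sign, was 0.67 in the members and 0.12 over all tested features. The mean of KH-1459 was 0.44 ± 0.11 (SE, limma adjusted p = 0.0095), that of KH-1601 -0.77 ± 0.09 (SE, limma adjusted p = 4.5e-05) and that of KH-2157 -2.61 ± 0.10 (SE, limma adjusted p = 2.5e-08). In KH-1199 the conditions nearly cancelled, at -0.15 ± 0.08 (SE, limma adjusted p = 0.2). By class, the mean was called in all 17 members higher in both, all 11 lower in both, 15 of 19 lower in microaerobic cells only, 3 of 5 higher in aerobic cells only and none of the 6 of opposite signs, an order that the definition of the classes sets in part.

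The members were also more variable between arrays of a condition than other features. Their median SD was 0.30 in aerobic and 0.40 in microaerobic cells (n = 4 each), against 0.18 and 0.17 over all 5355 features. The classes were uneven, from 0.21 and 0.24 in that lower in both to 0.47 and 0.79 in that higher in both. Of the 58, 46 lay among the 25% of features with the highest residual spread around the condition means, and 35 did so once the dye was fitted too. The rule takes a plain difference of means without regard to spread, so it can favour variable features. How far it did so was not tested.

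The ratios of the members also moved with the dye. A dye term, which the balance of the design keeps apart from the difference, was called in 17 of 58 members (29.3%) with limma, against 3.74% of tested features. In 15 of the 17 the ratio was higher where the xylose RNA carried Cy3 (2.36% of tested features), and in 2 where it carried Cy5 (1.37%). These 2 calls rested on single arrays and on the fit: none was made with the replicate block (0.542% of features) or without microaerobic array cy3-1 or any 1 of the 4 aerobic arrays (0.407% to 1.82%). The 17 calls in either direction were 13 with the replicate block, against 2.05% of features, and 12 without microaerobic array cy3-1, against 1.75%. The class higher in both held 10 of the 15, and in all 17 members of that class the ratio was higher with Cy3. The dye term of this class had a median of -0.93 (Cy5 minus Cy3) and ran from -1.64 to -0.10. For KH-1459 it was -0.67 ± 0.11 (SE, limma adjusted p = 0.0035), while for KH-1199, KH-1601 and KH-2157 it did not pass (limma adjusted p of 0.3, 0.62 and 0.77). After quantile normalization 9 members were called, against 2.01% of features.

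A dye effect that is equal in both conditions cancels in the difference, so the difference was set out in each orientation. It was positive in both for all 58 members, but reached 0.6 in both for only 23. The median was 1.06 where the xylose RNA carried Cy5 and 0.59 where it carried Cy3. The difference was larger in Cy5 for 45 members, larger in Cy3 for 12 and equal for 1, while over all 5355 features 49.9% had the larger value in Cy5. Among the 101 features with a difference of -0.6 or less, the drop was larger in Cy5 for 61 and in Cy3 for 40.

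A term for the difference in Cy5 minus that in Cy3, added after the data had been seen, was called with limma in 8 of 58 members, against 1.53% of tested features. In 7 of the 8 the difference was larger in Cy5 (0.881% of tested features), among them KH-2157 with 1.10 ± 0.25 (SE, limma adjusted p = 0.043). For KH-1459 the term was 0.04 ± 0.22, for KH-1199 -0.25 ± 0.27 and for KH-1601 0.72 ± 0.26 (SE), and none of these passed (limma adjusted p of 0.99, 0.81 and 0.23). In the class higher in both, the median aerobic ratio was 1.57 with Cy5 and 2.18 with Cy3, and the median microaerobic ratio 0.29 with Cy5 and 1.52 with Cy3. Between these medians the gap of the dyes was wider in microaerobic cells. In the class lower in both, the medians were -0.44 with Cy5 and -0.66 with Cy3 in aerobic cells, and -1.40 and -1.33 in microaerobic cells. The part of labelling in the difference between conditions was not tested beyond this term.

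**Figure D5:**
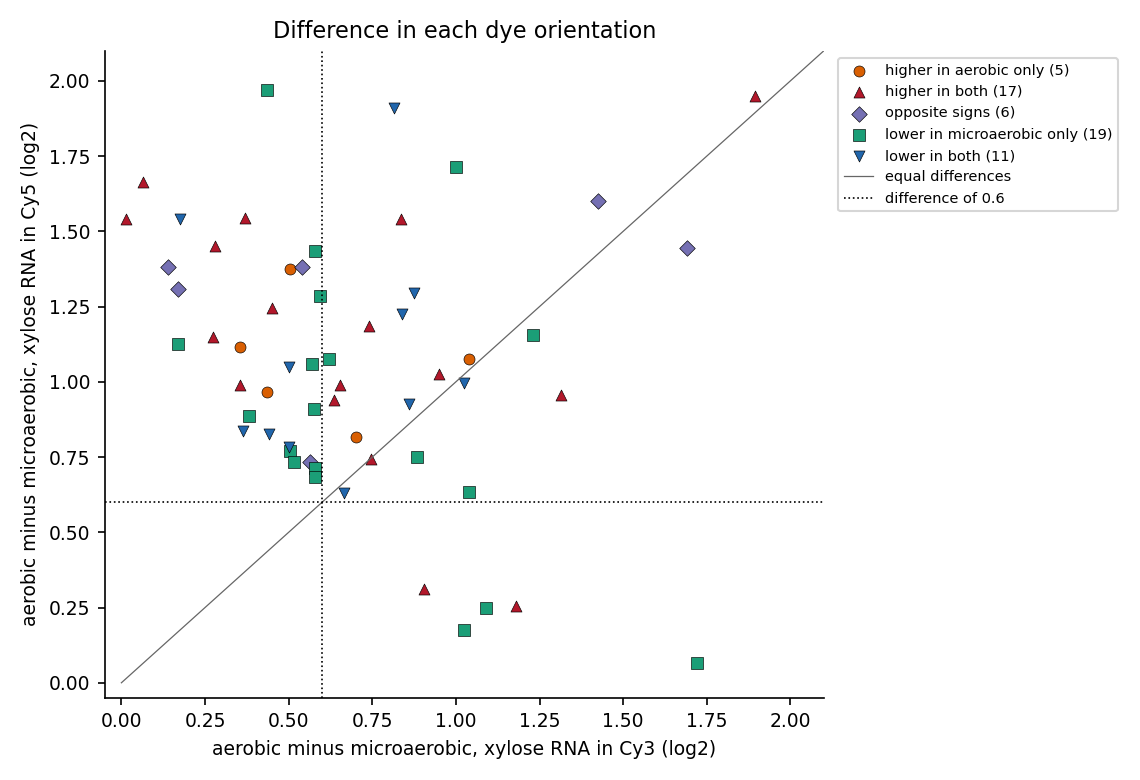
Aerobic minus microaerobic log2 ratio of each member on the arrays with the xylose RNA in Cy5 (vertical axis) against that on the arrays with it in Cy3 (horizontal axis), coloured by class, with dotted lines at 0.6. Of the 58 members, 45 lie above the line of equal differences and 23 lie in the upper right field, at 0.6 or more in both orientations.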

How the data were processed

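The only file holds 1 log2 ratio per feature and array, deposited by the authors. Per the labels' protocols, RNA was extracted with hot phenol, primed with oligo dT and labelled by an aminoallyl method. No source used here gives the scanner, background correction, normalization or log base, and intensities were not analysed. Of 5837 features 123 had no value and 359 lacked some. Members, classes and lists were chosen with earlier results of these data known. Ratios were used as deposited, and differences were rounded to 6 decimals before the threshold was applied, which keeps 2 members at exactly 0.6. Limma 3.58.1 in R 4.3.3 (lmFit, eBayes) was fitted to the 5674 features with at least 2 values per condition, over all 8 arrays, with a coefficient per condition and, for the dye, an added term. Benjamini-Hochberg adjustment ran over all tested features. The fits were tested on simulated data. The 4 identifiers printed follow a rule that takes the largest difference in each of 4 classes among members of 1 sign on the 4 arrays of the condition that names the class. Aerobic and microaerobic arrays of one name (cy5-1, cy5-2, cy3-1, cy3-2) deviated together, with correlations of 0.24, 0.21, 0.34 and 0.29 across features. Each exceeds 0.1, the bound set for pairing, and a replicate block was therefore also fitted. Arrays of one name share a dye, which was not removed from these deviations. The correlations therefore cannot show whether such arrays share a culture or day. Alternatives were median centring, quantile normalization, medians, other thresholds, a dye term, blocks, averaging of same-number arrays and leaving out each array.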

Additional observations from a re-analysis of the deposited data

Results flagged for a closer look

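No aerobic group of the 58 members had an array far from the other 3, by a criterion that marks about 1 in 20 groups of 4 by chance, but in 4 members 1 microaerobic array lay far below the others. The values were -2.10, -0.59 and -1.78 on microaerobic array cy5-2, with the nearest other array at 0.29, 1.45 and -0.48, and -0.14 on cy5-1, with the nearest at 0.49. Over all 5355 features 4.76% of aerobic and 4.22% of microaerobic groups met the criterion. Without array cy5-2 the differences of the first 3 of these members were 0.11, 0.12 and 0.31, below the threshold of 0.6.

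KH-1199, with a difference of 1.57, was positive on every aerobic and negative on every microaerobic array, as were 3 members in all. These members were chosen for their difference, so nothing is read from its limma calls.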

How the results depend on the processing

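At a threshold of 0.5 or 0.8 there were 97 or 31 members. The count of 58 was 59 after median centring, 58 after quantile normalization (50 of them the same features), 59 with medians (50 the same), 60 with at least 2 values per condition and 48 to 85 with 1 array left out. All 8 arrays could be left out in turn without loss for 29 of the 58. With 1 array left out, 39 to 52 of the 58 both stayed members and kept their class. The 39 were found without microaerobic array cy5-2, where 41 of the 58 stayed members. The count of opposite signs (6) was 10 at a level of 0.2 and 2 at 0.4. The 5 members higher in aerobic cells only were 9 and 10 without aerobic array cy5-1 or cy5-2, 12 and 13 without microaerobic array cy3-1 or cy3-2, and 3 and 9 at those levels. The 19 lower in microaerobic cells only were 12 after quantile normalization and at a level of 0.2, and the 11 lower in both were 7 at a level of 0.4. The calls for the mean over both conditions (46) lay between 40 and 46 with 1 array left out, against 21.6% to 27.8% of features. They were 11 of 12 members without the 25% of features of highest spread, against 35.6% of features, a setting that leaves few members to test. There the aerobic ratio was called in 10 (17.9% of features), the microaerobic in 11 (27.6%) and the dye term in 9 of 23 (11.8%). Quantile normalization also gave 9 for the dye term (2.01%). With 1 array left out the dye term was called in 12 to 17 members. The share of features was 1.75% to 2.40% without any 1 microaerobic array or either aerobic Cy3 array. It was 3.92% and 4.32% without aerobic array cy5-1 or cy5-2. The 18 calls for the difference were 35 with the replicate block, 44 with either a dye term or a random block by number and 54 with same-number arrays averaged. The share of all features called in that direction grew as well, with 0.335% as reported, 0.822% with the replicate block, 1.22% with the dye term, 1.89% with the random block and 2.36% with averaging. With 1 array left out the 18 were 11 (without microaerobic array cy5-2, 0.194% of features) to 22 (without microaerobic array cy3-1, 0.390%). Median centring and quantile normalization moved the median of features chosen on 1 number and read on the other by less than 0.1. The replicate block also moved the dye calls over all features, of which there were 110 with it, against 212 as reported, and it moved no other total of calls among the members by over 1.5 times. With 4 arrays per condition and no intensities, neither dim nor saturated spots could be marked.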

Other observations

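The array's identifiers carry a running number, whose order is not explained in the sources used here. The median number was 1953.5 among the 58 members and 3068 among the other 5297 features with 8 values. At or below the median of all features, 3057, lay 69% of the members and 49.8% of the other features, while it was 53.5% of the 101 features with a difference of -0.6 or less. Another member lay within 3 numbers for 8 of the 58 members (13.8%), and a member lay within 3 numbers for 5.3% of the other features. These shares are descriptions, and what the numbering follows was not tested.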
